A study of Mus musculus with 4 samples.

Results

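Complex I of the respiratory chain was followed at the RNA level through 44 genes, taken from the 23312 genes of each deposited table as every symbol of the form Nduf followed by a, b, c, s, v, ab or af and a number. They comprised 7 core subunits of the matrix arm, 10 accessory subunits of the matrix arm, 19 accessory subunits of the membrane arm, 7 assembly factors and Ndufa4, which carries the family name but was later placed in complex IV. Ndufb1 and Ndufaf8 were not analysed here, nor were the subunits encoded in mitochondrial DNA. Genes entered the set by name and not by any measured value. The set itself was chosen with earlier results of these data known.

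Complex I, or NADH:ubiquinone oxidoreductase, takes electrons from NADH in the mitochondrial matrix, passes them through flavin and iron-sulphur clusters to ubiquinone, and pumps protons across the inner membrane. Its L shape has a matrix arm, which holds the nuclear-encoded catalytic core, and a membrane arm, whose core is encoded in mitochondrial DNA. Around both sit accessory subunits, many of them very small proteins, that stabilise the complex. Assembly factors help to build it and do not stay in the finished enzyme.

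Messenger RNA was sequenced from B220+CD43+ pro-B cells, early B-lineage cells, sorted from the bone marrow of C57BL/6 mice. Of 4 libraries, 2 came from Cnot3 fl/fl mice, whose Cnot3 alleles are flanked by loxP sites, and 2 from Cnot3 +/+ mice, the controls. All mice carried RERTCre, a Cre recombinase activated by tamoxifen, and all were injected with 1 mg tamoxifen on days 1, 2, 4 and 7 and analysed on day 10, so the controls shared both Cre and drug. Each library came from an individual mouse. Cnot3 is a subunit of CCR4-NOT, the main deadenylase complex of the cell, which trims poly(A) tails and so limits the life of mRNAs, and the comparison asked which transcripts differ when it has been targeted. The labels name no cell type to which RERTCre is limited, so other cells of the mice could be affected as well.

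The values were FPKM, fragments scaled to transcript length and to library size, and the absolute depth was unknown. Between 14684 and 15126 genes were above 0 in a library. Cnot3 itself measured 39.0 and 40.3 FPKM with the Cnot3 fl/fl label, against 41.6 and 39.3 FPKM in controls (limma, adjusted p = 0.827). This level is summed over all exons and the deleted ones are not named, so it checks no label. Cnot3 +/+ replicate 1 stood apart with Xist at 0.024 FPKM and Ddx3y at 16.0 FPKM, against 54.3 to 63.1 FPKM for Xist in the other 3 libraries. By these sex-linked genes that library read as male and the other 3 as female, so only the controls mixed the sexes. Checked against the labelled cell type, 13 B-lineage markers were present. Their summed level was 805 to 827 FPKM in Cnot3 fl/fl and 1002 to 1307 FPKM in Cnot3 +/+ libraries. Cd79a, Pax5, Vpreb1 and Igll1 were among the 5 that fell. The other 8 did not pass, and 3 of the 13 had a log2 fold change above 0. The 10 markers of plasmacytoid dendritic cells, led by Bst2, Irf8 and Ly6d, summed to 8827 to 10440 against 10528 to 10844 FPKM, with Cox6a2 lower. Siglech of that list, at 1115 to 1456 FPKM, was above Cd79a, at 62.4 to 152.1 FPKM, in every library. The 11 neutrophil and monocyte markers, led by S100a9, S100a8 and Lyz2, summed to 181 to 265 against 183 to 241 FPKM, with Elane, Ctsg and Itgam higher. The other 8 did not pass, and 4 of the 11 had a log2 fold change below 0. The 10 T and NK cell markers, led by Cd4, Nkg7 and Gzma, summed to 630 to 759 against 600 to 655 FPKM, with Cd8a alone higher. The other 9 did not pass, and 6 of the 10 had a log2 fold change below 0. The 10 erythroid markers, led by Tfrc, Hba-a1 and Hbb-b1, summed to 104 to 118 against 145 to 169 FPKM, with Tfrc lower. Most of each sum was Tfrc, at 77.6 to 81.0 against 105.3 to 116.4 FPKM. Only 4 of the 10 were tested and 6 were under the filter. The other 3 tested did not pass, and Hba-a1 and Hbb-b1 overlapped between the genotypes. The erythroid regulators Gata1 and Klf1 were under 1 FPKM in every library, and Epor was listed at 0 in Cnot3 +/+ replicate 2. How far these cell markers bear on the complex I values was not tested. In sorted bulk samples, fewer cells of a type and less RNA per cell cannot be told apart.

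All 44 complex I genes had values above 0 in the 4 libraries, and 43 had a mean of at least 1 FPKM and were tested with limma on log2(FPKM + 1), with Benjamini-Hochberg adjustment over 11017 genes. In Cnot3 fl/fl libraries 1 of the 43 rose, 5 fell and 37 did not pass the test at an adjusted p under 0.05. Over all tested genes 9.49% passed, 6.22% as higher and 3.28% as lower. An unadjusted p under 0.05 in limma was reached by 21 of the 43 and by 3722 of the 11017. That share over all genes is the background for such counts below. The gene that rose was Ndufa9, and those that fell were Ndufa3, Ndufa4, Ndufa1, Ndufc1 and Ndufc2, each with a coding sequence of at most 120 codons. The median log2 fold change was -0.084 over the 43 genes and -0.009 over all genes tested. Both Cnot3 fl/fl libraries lay above both Cnot3 +/+ libraries in 12 of the 43 and below them in 20, which is 27.9% and 46.5%, against 32.7% and 31.7% of all tested genes. In the authors' deposited table, which marked 6.59% of the genes it tested as significant, 2 of the 44 were significant, Ndufa3 and Ndufa4.

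Calls were largely lost with fewer than 4 libraries, over all genes as in complex I, whereas the sizes of the differences changed less. Each fit without 1 library leaves 1 genotype with a single library, so the spread then came from the other genotype alone and the lone library is assumed to vary like it. Only effect sizes of those fits are therefore given here. Over those 4 fits the log2 fold change was -0.898 to -0.721 for Ndufa3, -0.741 to -0.582 for Ndufa4 and -0.756 to -0.542 for Ndufa1. It was -0.601 to -0.494 for Ndufc1, -0.505 to -0.396 for Ndufc2 and 0.471 to 0.612 for Ndufa9. With no filter on low values 0 of 44 passed (limma, adjusted p 0.0658 to 0.0819 for the same 6 genes). Over all genes only 4 then passed as higher and 1 as lower. At an unadjusted p under 0.05 were then 21 of the 44 and 4389 of all 16296 genes.

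**Figure D1:**
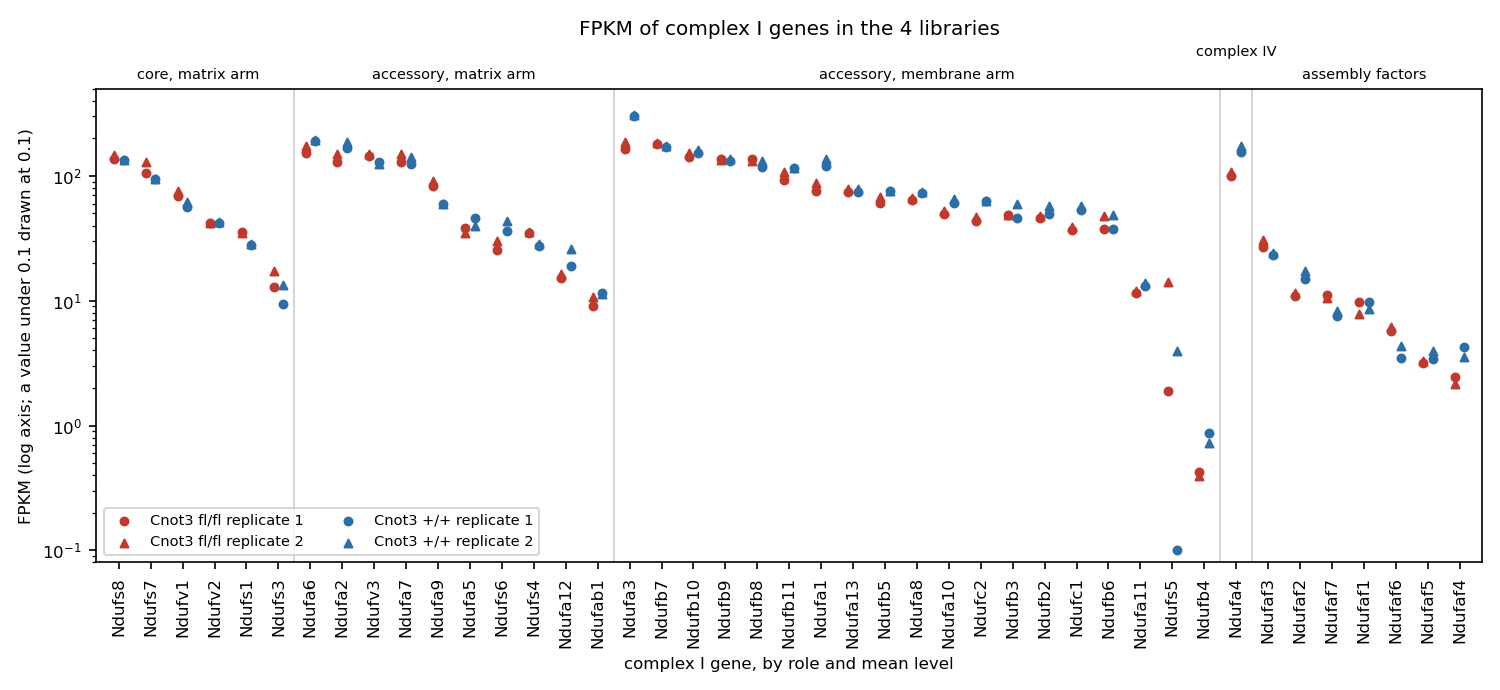
FPKM (log axis, values under 0.1 drawn at 0.1) of 43 complex I genes in the 4 libraries, by role and by mean level, with circles for replicate 1 and triangles for replicate 2. Levels span from Ndufb4 at a mean of 0.606 FPKM to Ndufa3 at a mean of 240.2 FPKM, and the libraries of a gene mostly lie close together except for Ndufs5.

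Promoters of nuclear complex I genes are textbook targets of nuclear respiratory factor 1 and of the ETS factor GABP. The RefSeq promoter table (GRCm38.p6, 250 bases before to 50 after each start) held 41 promoters of 39 members. The palindromic NRF1 motif of 10 bases, whose letters are the capitals in the first sequences shown, was in 3 of the 41 (7.32%) and in 0.971% of all 32851 promoters of that length. The ETS motif CCGGAAGT, searched on both strands, was in 1 of the 41 (2.44%) and in 3.89% of all. The promoters with the NRF1 motif were those of Ndufa11, Ndufaf4 and Ndufaf5, none of which passed the test. None of the 6 genes that passed held either motif in this window, which says only that these letters are not there. The 250 bases before the start are shown for 2 promoters that hold the NRF1 motif, in capitals, and for the genes with the steepest fall and the only rise. They are Ndufa11 (chr17:56717512-56717761, plus strand), Ndufaf4 (chr4:24897833-24898082, plus strand), Ndufa3 (chr7:3617123-3617372, plus strand) and Ndufa9 (chr6:126849145-126849394, minus strand), all in GRCm38.p6, a later build than the mm9 of the deposited loci.
Ndufa11: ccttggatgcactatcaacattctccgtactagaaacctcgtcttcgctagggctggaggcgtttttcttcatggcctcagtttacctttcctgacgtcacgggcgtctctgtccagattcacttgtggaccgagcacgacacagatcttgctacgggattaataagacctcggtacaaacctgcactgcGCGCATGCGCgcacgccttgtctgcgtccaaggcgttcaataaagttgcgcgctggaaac
Ndufaf4: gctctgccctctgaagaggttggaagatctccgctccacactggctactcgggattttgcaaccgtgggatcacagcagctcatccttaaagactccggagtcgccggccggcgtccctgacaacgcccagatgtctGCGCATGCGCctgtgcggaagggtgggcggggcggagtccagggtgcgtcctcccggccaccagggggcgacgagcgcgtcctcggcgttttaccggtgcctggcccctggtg
Ndufa3: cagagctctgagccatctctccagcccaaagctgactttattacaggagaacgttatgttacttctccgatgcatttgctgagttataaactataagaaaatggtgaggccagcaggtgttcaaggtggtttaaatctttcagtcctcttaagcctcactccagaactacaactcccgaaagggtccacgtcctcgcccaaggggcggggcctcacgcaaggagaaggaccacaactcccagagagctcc
Ndufa9: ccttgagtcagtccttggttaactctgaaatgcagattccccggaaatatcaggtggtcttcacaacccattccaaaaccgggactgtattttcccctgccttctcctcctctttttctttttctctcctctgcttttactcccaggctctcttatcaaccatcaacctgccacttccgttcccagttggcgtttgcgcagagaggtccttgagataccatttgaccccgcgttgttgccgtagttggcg
The motif begins 60 bases before the start in Ndufa11 and 113 bases before it in Ndufaf4. The share of G and C in these 250 bases was 53.2%, 66.4%, 50.4% and 50% in the order shown.

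The 7 core subunits of the matrix arm carry the redox chain itself, and none of them passed the test, with 0 calls in limma, 3 at an unadjusted p under 0.05 and 0 in the authors' deposited table. Their log2 fold changes lay between -0.003 and 0.383, with 6 of 7 above 0 and a median of 0.298. Ndufv1, which binds NADH and the flavin, measured 69.5 and 76.1 FPKM in Cnot3 fl/fl libraries, against 56.6 and 61.4 FPKM in controls. The groups did not overlap, and the log2 fold change was 0.30 with standard error 0.090 (limma, adjusted p = 0.0975). Ndufs1, the largest subunit and a carrier of iron-sulphur clusters, was at 35.3 and 34.6 against 27.7 and 28.5 FPKM. Its libraries agreed closely within each genotype and did not overlap between them (log2 fold change 0.30, standard error 0.072, limma adjusted p = 0.0655). Ndufs7, an iron-sulphur protein beside the quinone site, was at 106.3 and 128.7 against 93.7 and 93.9 FPKM (limma, adjusted p = 0.136). Here the Cnot3 fl/fl libraries were both higher but differed more from each other than the controls did.

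Ndufs8, which holds a pair of iron-sulphur clusters and was the most abundant core subunit, was at 137.2 and 145.9 against 134.5 and 133.3 FPKM. Ndufv2, the second subunit of the NADH-oxidising end, was at 42.1 and 41.7 against 41.6 and 42.4 FPKM, and its genotypes overlapped with a log2 fold change of -0.003. Ndufs3, a matrix-arm subunit and the least abundant core gene, was at 12.9 and 17.3 against 9.37 and 13.5 FPKM. Its log2 fold change of 0.38 was the highest of the core genes, but it had the widest spread within a genotype on the log2 scale and its groups overlapped (standard error 0.22, limma adjusted p = 0.283).

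Among the 10 accessory subunits of the matrix arm 1 rose, 0 fell and 9 did not pass. Ndufa9, which sits at the junction of the arms, measured 82.3 and 90.9 FPKM in Cnot3 fl/fl libraries, against 59.1 FPKM in each control. Both values lay well above the controls, which were almost equal. The mean rose from 59.1 ± 0.0239 to 86.6 ± 6.06 FPKM (SD over 2 mice each), a log2 fold change of 0.54 with standard error 0.084 (limma, adjusted p = 0.0401). Its q-value in the authors' deposited table was 0.0796. In the files' mm9 locus column Ndufa9 spans chromosome 6 from 126771880 to 126799162, and the sources used here do not give whether its starts count from 0 or 1.

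The other accessory subunits of the matrix arm went both ways. Ndufs4, which is needed for a stable NADH-oxidising end, was at 35.0 and 35.6 against 27.4 and 28.5 FPKM (limma, log2 fold change 0.33 and adjusted p = 0.0601). Ndufs6, a zinc-binding subunit next to it, was at 25.3 and 30.2 against 36.3 and 43.6 FPKM (limma, log2 fold change -0.51 and adjusted p = 0.0777). These neighbours in the enzyme thus had values in opposite directions without overlap between the genotypes, and neither passed. Ndufv3 was at 143.7 and 150.7 against 129.0 and 124.7 FPKM and also did not overlap. Ndufa12 was at 15.2 and 16.3 against 18.9 and 25.9 FPKM, and Ndufa6, the most abundant of the group, at 152.0 and 173.4 against 189.7 and 194.1 FPKM. Ndufa2, Ndufa5 and Ndufab1, the mitochondrial acyl carrier protein and the least abundant of the group, had log2 fold changes of -0.35, -0.23 and -0.20, and Ndufa7 had 0.08.

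Of the accessory subunits of the membrane arm, 18 of 19 were tested, of which 0 rose, 4 fell and 14 did not pass. Ndufa3, a small membrane-spanning subunit and the most abundant of the 44 genes, measured 163.7 and 185.3 FPKM in Cnot3 fl/fl libraries, against 303.1 and 308.8 FPKM in controls. Both Cnot3 fl/fl values were far below both controls. The mean fell from 305.9 ± 4.04 to 174.5 ± 15.2 FPKM (SD over 2 mice each), a log2 fold change of -0.81 with standard error 0.10 (limma, adjusted p = 0.0348). Its q-value in the authors' deposited table was 0.0124.

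Ndufa3 lies beside the targeted gene. In the mm9 locus column it spans chromosome 7 from 3568974 to 3571763, and the interval given for Cnot3 runs from 3596870 to 3629155 of the same chromosome, which leaves 25.1 kb between them. That interval is also the one given for Leng1, Tmc4 and Mir3572, so an interval in this column can be wider than the gene itself. Of 13 genes up to 100 kb from it, Cnot3 included, 10 were tested. At an adjusted p under 0.05 in limma, 1 rose and Ndufa3 alone fell, where 9.49% of all tested genes passed. The riser was Mboat7, a membrane-bound acyltransferase gene, at 33.3 and 40.0 against 22.7 and 22.0 FPKM (limma, log2 fold change 0.68 and adjusted p = 0.0412). Tfpt and Prpf31, which lie between Ndufa3 and Cnot3, had log2 fold changes of 0.38 and 0.035 and did not pass (limma, adjusted p = 0.0993 and 0.827). Rps9 and Lilrb3, on the other side of Cnot3, lay below both controls in both Cnot3 fl/fl libraries. Their log2 fold changes were -0.447 and -0.194, and neither passed (limma, adjusted p = 0.154 and 0.143). Whether the position of Ndufa3 near the modified allele bears on its value was not tested.

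Ndufa1, a very small X-linked subunit that is needed for assembly of the membrane arm, was at 75.9 and 88.2 against 120.7 and 137.5 FPKM. The genotypes did not overlap, and the lower control value came from replicate 1, the library that read as male. The mean fell from 129.1 ± 11.9 to 82.0 ± 8.70 FPKM (SD over 2 mice each), a log2 fold change of -0.65 with standard error 0.12 (limma, adjusted p = 0.0437). With that control left out the log2 fold change of Ndufa1 was -0.743. Ndufa1 spans 34727583 to 34731233 of the X chromosome (mm9).

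Ndufc1 and Ndufc2 encode small subunits of the membrane arm. Ndufc1 was at 36.8 and 38.8 against 53.6 and 57.8 FPKM, and its log2 fold change was -0.55 with standard error 0.081 (limma, adjusted p = 0.0396). Ndufc2 was at 43.7 and 47.2 FPKM, below both controls at 62.4 ± 0.0275 FPKM (SD over 2 mice), and its log2 fold change was -0.45 with standard error 0.078 (limma, adjusted p = 0.0423). Both genes fell, and in both the 2 libraries of a genotype lay close together and the genotypes were apart. In the authors' deposited table their q-values were 0.275 and 0.262, so that table did not mark them. Ndufc1 spans 51209400 to 51212877 of chromosome 3, and Ndufc2 104548512 to 104556310 of chromosome 7 (mm9).

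The remaining 14 tested genes of the membrane arm did not pass. Ndufa10, a subunit of the membrane arm that faces the matrix, was at 49.1 and 52.3 against 60.9 and 65.2 FPKM (limma, log2 fold change -0.31 and adjusted p = 0.0772). The genotypes did not overlap in Ndufa10, whereas Ndufa13, Ndufb3, Ndufb6 and Ndufb9 overlapped, with log2 fold changes between -0.114 and 0.015. Ndufb7 and Ndufb8 lay slightly above the controls in both Cnot3 fl/fl libraries, at 0.075 and 0.10. Ndufa8, Ndufa11, Ndufb2, Ndufb5, Ndufb10 and Ndufb11 had log2 fold changes between -0.233 and -0.084. Ndufs5 and Ndufb4 had the lowest values, and those of Ndufs5 were the most uneven. Both are described with the near-identical copies.

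Ndufa4 measured 100.03 and 107.97 FPKM in Cnot3 fl/fl libraries, against 156.1 and 174.3 FPKM in controls, with no overlap. The mean fell from 165.2 ± 12.9 to 104.0 ± 5.62 FPKM (SD over 2 mice each), a log2 fold change of -0.66 with standard error 0.097 (limma, adjusted p = 0.0396), with a q-value of 0.0439 in the authors' deposited table. It is counted among the 44 by its name, although its product belongs to cytochrome c oxidase. Ndufa4 spans 11850372 to 11857446 of chromosome 6 (mm9).

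**Figure D2:**
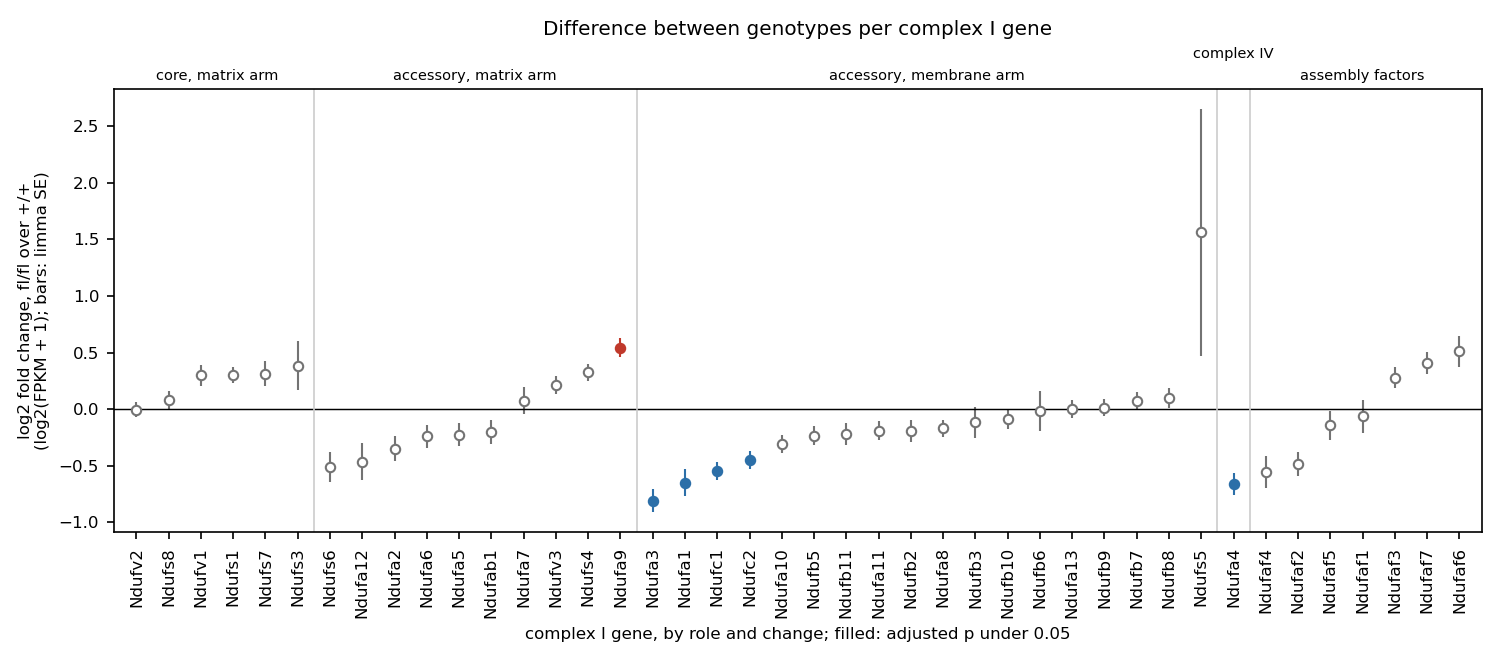
Log2 fold change of Cnot3 fl/fl over Cnot3 +/+ libraries for 42 tested genes, by role, with limma standard errors as bars and filled points for an adjusted p under 0.05. Of the core genes drawn 5 of 6 lie above 0, whereas 13 of 18 accessory genes of the membrane arm lie below it.

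None of the 7 assembly factors passed, with 0 calls in limma, 5 at an unadjusted p under 0.05 and 0 in the authors' deposited table. Over all tested genes 3722 of 11017 were at an unadjusted p under 0.05. Their levels were lower than those of most subunits. Ndufaf3, the most abundant of them, was at 27.0 and 30.7 against 23.0 and 24.1 FPKM. Ndufaf4, which works with Ndufaf3 on the quinone-binding part of the arm, was at 2.46 and 2.16 against 4.22 and 3.52 FPKM and was the least abundant. These partners lay on opposite sides, with log2 fold changes of 0.28 and -0.56 (limma, adjusted p = 0.12 and 0.0766). Ndufaf2, a late assembly factor related in sequence to Ndufa12, was at 10.8 and 11.4 against 14.9 and 17.2 FPKM (limma, log2 fold change -0.49 and adjusted p = 0.0571). It lay below the controls in both libraries, as did Ndufa12 itself. Ndufaf7, a methyltransferase of the matrix, was at 11.1 and 10.6 against 7.50 and 8.31 FPKM (limma, log2 fold change 0.41 and adjusted p = 0.0672). Ndufaf6 was at 5.76 and 6.16 against 3.46 and 4.34 FPKM (limma, log2 fold change 0.51 and adjusted p = 0.0798). Ndufaf1 and Ndufaf5 had log2 fold changes of -0.064 and -0.14, and their single libraries lay between 3.14 and 9.86 FPKM.

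Other genes that serve complex I gave no call. Of 13 listed, 10 were in the table and 9 were tested, with 0 calls in limma, 2 at an unadjusted p under 0.05 and 0 in the authors' deposited table. Timmdc1, a membrane-arm assembly factor, was at 8.70 and 8.97 against 12.1 and 12.2 FPKM (limma, log2 fold change -0.42 and adjusted p = 0.0516). Tmem186, which also takes part in assembly of the membrane arm, was at 13.4 and 13.1 against 10.5 and 9.48 FPKM (limma, log2 fold change 0.38 and adjusted p = 0.0722). Nubpl, which delivers iron-sulphur clusters to the complex, was at 3.43 and 3.04 against 1.85 and 2.60 FPKM (log2 fold change 0.40). Ndufa4l2, a relative of Ndufa4, was listed at 0 in all 4 libraries. Of 14 regulators of mitochondrial gene expression, 13 were tested and 0 passed in limma, with 2 at an unadjusted p under 0.05 and 0 in the authors' deposited table. Those 2 were Gabpb1 and Gabpb2, subunits of the GABP transcription factor, with log2 fold changes of -0.32 and -0.29 (limma, adjusted p = 0.0966 and 0.105). Nrf1, which encodes nuclear respiratory factor 1, was at 16.3 and 15.3 against 17.0 and 19.6 FPKM.

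Levels were also summed by role. The core genes of the matrix arm summed to 516.2 and 563.7 FPKM in Cnot3 fl/fl libraries, against 478.3 and 484.7 FPKM in controls. The accessory genes of the matrix arm summed to 760.5 and 841.2 against 810.3 and 854.9 FPKM, with overlap. The matrix arm as a whole, core and accessory genes, summed to 1277 and 1405 against 1289 and 1340 FPKM, and the genotypes overlapped there too. The accessory genes of the membrane arm summed to 1401 and 1503 against 1661 and 1762 FPKM, without overlap. Ndufa3 alone made up 163.7 and 185.3 against 303.1 and 308.8 FPKM of these sums, a large part of the gap. Within a library, where scaling drops out, the core sum over the membrane-arm sum was 0.368 and 0.375 against 0.288 and 0.275. The same ratio with the whole matrix arm was 0.911 and 0.935 against 0.776 and 0.761. Over all 44 genes the sums were 2848 and 3088 against 3172 and 3346 FPKM. The order of levels among the 44 genes was nearly the same in every library, with Spearman's rho between 0.963 and 0.992 over the 6 pairs of libraries.

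The differences also ran along coding length. Lengths were the longest coding sequence of each gene in GENCODE M21, and 43 of 43 tested genes and 95.8% of all tested genes had one. The comparison was chosen because earlier results of these data had named long members that rose and short members that fell, so it describes that pattern and does not test it. The 18 genes of under 150 codons had a median log2 fold change of -0.233, and all 5 genes that fell were among them. Of all tested genes of under 150 codons, 79 of 713 (11.1%) fell, against 2.25% of those with 300 codons or more. The 15 complex I genes of 150 to under 300 codons had a median of -0.003. The 10 of 300 codons or more had a median of 0.255, with Ndufa9 among them, and 6.92% of all tested genes of that length rose. The Cnot3 fl/fl libraries were both under both controls in 66.7% of the complex I genes of the shortest class and in 20% of the longest.

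Among all tested genes the same classes ran in the same order. The shortest class had a median near that of complex I, and the longest a smaller one. Over all tested genes the class medians were -0.202 over 713 genes, -0.054 over 2181 and 0.020 over 7656. The Cnot3 fl/fl libraries lay below the controls in 51.8%, 35.2% and 28.9% of these classes. Across the 43 genes Spearman's rho between log2 fold change and codons was 0.600 and Pearson's r with log2 codons 0.441, against 0.117 and 0.096 across 10550 genes. Genes share libraries and are not independent replicates, so no p is given. Ndufa1 with 70 codons, Ndufc1 with 76, Ndufa4 with 82, Ndufa3 with 100 and Ndufc2 with 120 were at the short end. Ndufa10, with 355 codons and a log2 fold change of -0.31, lay against the trend, as did Ndufs5, with 106 codons, whose fold change is not well determined. Within the accessory genes of the membrane arm alone rho was 0.340 and Pearson's r 0.103, over 18 genes. Without the members that have a near-identical transcript of another gene rho was 0.725, over 33 genes, a setting chosen after the data were seen.

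**Figure D3:**
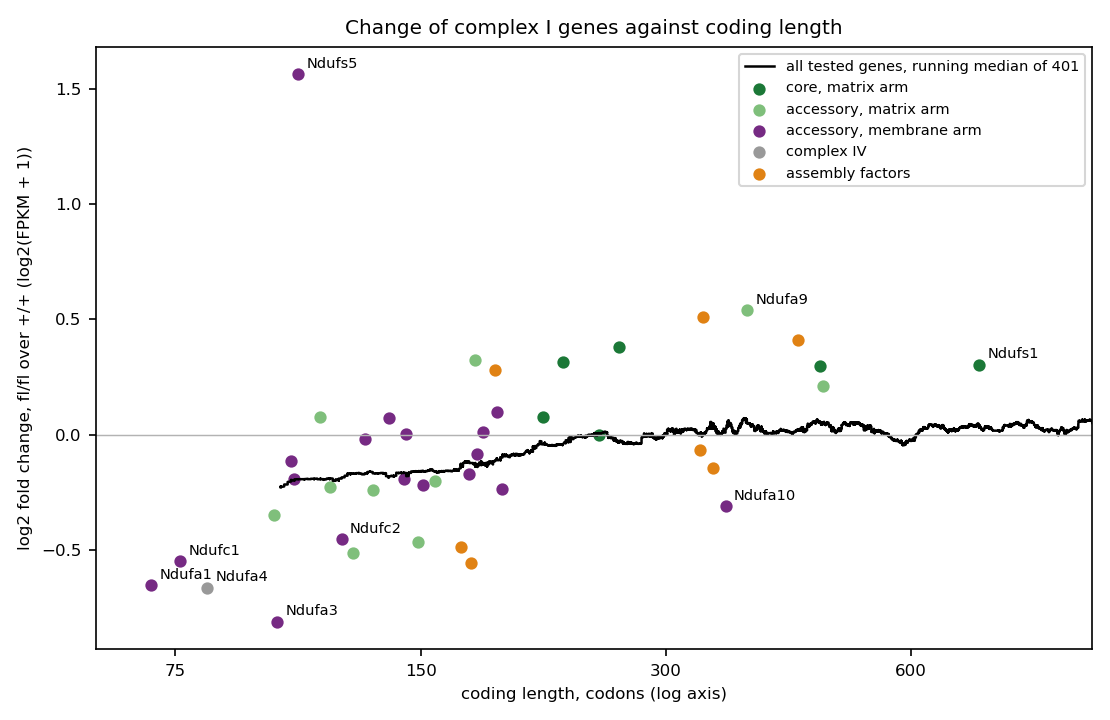
Log2 fold change of 42 tested genes against coding length in codons (log axis), coloured by role, with the running median of all tested genes as a black line. The short genes Ndufa1, Ndufc1, Ndufa4 and Ndufa3 lie below the line and Ndufa9 and Ndufs1 above it.

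Libraries of the same genotype differed along length as well, by less. Between the 2 Cnot3 fl/fl libraries (replicate 1 minus replicate 2) the median difference of the complex I genes was -0.109 for the shortest class and -0.075 for the longest, and rho was 0.274. Between the 2 Cnot3 +/+ libraries it was -0.150 and -0.068, with a rho of 0.307. The 4 pairs of different genotype gave -0.439 to -0.163 for the shortest class and 0.189 to 0.270 for the longest, with rho between 0.501 and 0.747. The sources used here do not give how FPKM of very short transcripts was corrected for length, and its part in these values was not tested.

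The other respiratory complexes showed values in the same order. Among 37 tested genes of complexes II to V, 2 rose and 3 fell, with a median log2 fold change of -0.205. Their medians were -0.318, -0.121 and 0.256 from the shortest to the longest class, and rho with length was 0.643. The 72 tested mitochondrial ribosomal protein genes, the other large set of small nuclear-encoded mitochondrial proteins, had a median of 0.013, with 1 higher and 3 lower and class medians of -0.058, 0.020 and 0.112. The 74 tested cytosolic ribosomal protein genes had 0 higher and 21 lower in limma, with 53 at an unadjusted p under 0.05 and 24 marked in the authors' deposited table, and medians of -0.680, -0.517 and -0.701 in the 3 classes. Whether complex I differed from these groups was not tested.

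**Figure D4:**
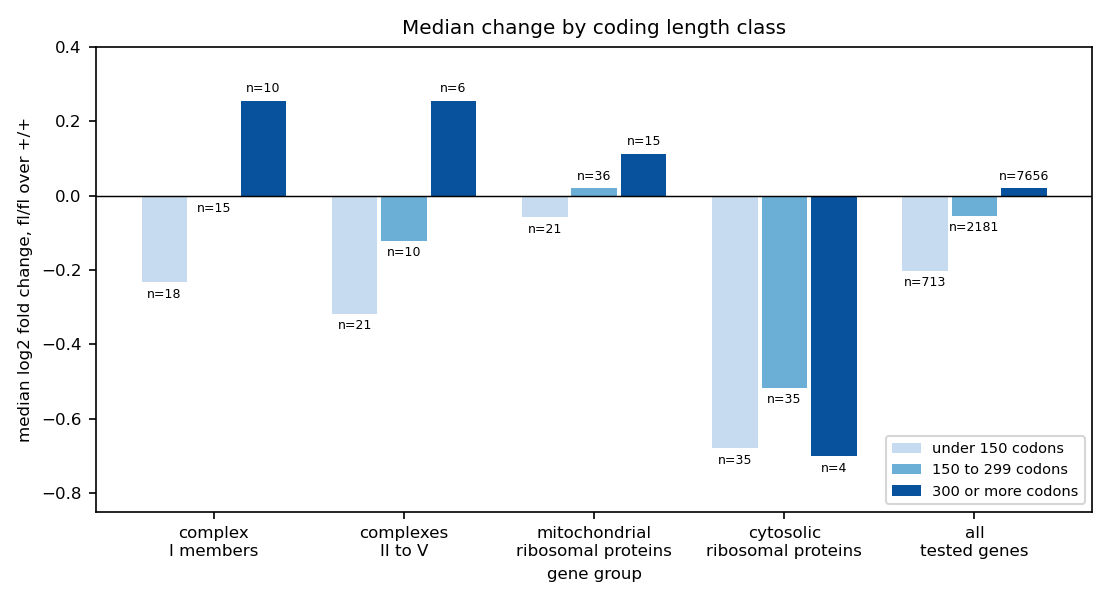
Median log2 fold change by class of coding length for complex I genes, 3 other gene groups and all tested genes, with the number of genes printed at each bar. In complex I the bars run from -0.233 to 0.255, in complexes II to V from -0.318 to 0.256, and in all genes from -0.202 to 0.020.

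Several members have near-identical copies elsewhere in the genome. Each member's transcript was compared with all GENCODE M21 transcripts, and a copy was a transcript of another gene with at least 95% identity over at least 200 aligned bases. Among the 37 members other than assembly factors, 7 had such a pseudogene, namely Ndufa12, Ndufab1, Ndufb3, Ndufb4, Ndufb11, Ndufs3 and Ndufs5. Their median level was 13.3 FPKM, within 0.606 to 108.3 FPKM, against 74.5 FPKM for the 30 without, within 12.6 to 240.2 FPKM. Of the 6 lowest of the 37, 5 had a pseudogene, with Ndufa11 as the exception. Low levels occurred without copies as well, since the assembly factors Ndufaf4, Ndufaf5, Ndufaf6, Ndufaf1 and Ndufaf7, at means of 3.09 to 9.37 FPKM, have no such pseudogene. Reads that match several places can be split or lost in counting, so these levels are uncertain in that respect. The sources used here do not give how such reads were treated.

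Ndufb4 and Ndufs5 were the extreme cases. Ndufb4, a membrane-arm subunit, measured 0.427 and 0.398 FPKM in Cnot3 fl/fl libraries, against 0.879 and 0.719 FPKM in controls, all under the filter. It has a copy of 100% identity over the aligned bases, Ndufb4c. Ndufs5, which faces the intermembrane space, measured 1.89 and 14.1 FPKM in Cnot3 fl/fl libraries, against 0.00035 and 3.99 FPKM in controls. Within each genotype its libraries were far apart and the genotypes overlapped, with a log2 fold change of 1.56 and standard error 1.09 (limma, adjusted p = 0.367). Leaving out replicate 1 or 2 of the Cnot3 fl/fl libraries gave Ndufs5 a log2 fold change of 2.753 or 0.371. Leaving out replicate 1 or 2 of the controls gave 0.403 or 2.721. It was 3.050 with a pseudocount of 0.1 FPKM and 0.773 with 5 FPKM, so its size is not determined here. The gene BC002163, 99.4% identical to it, had the same interval in the mm9 locus column, chromosome 4 from 123389952 to 123395429. BC002163 was at 51.2 and 57.4 against 48.9 and 57.1 FPKM (limma, adjusted p = 0.852). The sum of both was 53.1 and 71.5 against 48.9 and 61.1 FPKM, and the genotypes overlapped. A further 4 members, Ndufa13, Ndufb5, Ndufb6 and Ndufb9, shared a stretch of at least 200 bases with a neighbouring or overlapping gene that is no pseudogene. In the locus column the intervals of Ndufa2, Ndufa13, Ndufb11 and Ndufs1 overlapped those of Tmco6, Tssk6, Rbm10 and Gm11602, in that order. Whether strand was used in counting is not known here, so these levels are uncertain too.

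**Figure D5:**
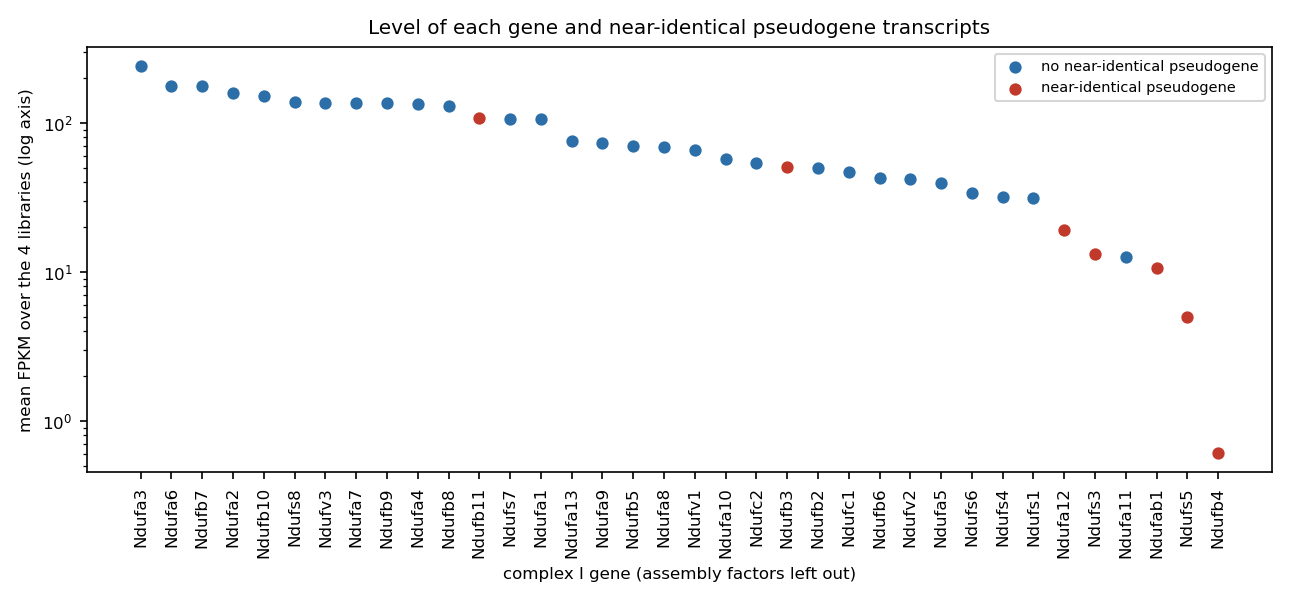
Mean FPKM over the 4 libraries (log axis) of 36 members other than assembly factors, in order of level, with members that have a near-identical pseudogene in red. Of the 6 lowest members 5 are red, and the remaining 2 red members are Ndufb11 and Ndufb3.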

How the data were processed

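RNA of 4 sorted pro-B libraries, 2 per genotype, was prepared with a stranded mRNA kit, per the labels' protocols. The submitters' processing notes list the build mm9 and the tools Cuffnorm 2.2.1, Cufflinks 2.2.1, Bowtie2 2.2.3.0, TopHat2 2.0.13 and bcl2fastq 1.8.4. Which step each tool did, the annotation, and how libraries were scaled to each other are not stated there. FPKM for 23312 genes in each library were deposited by the authors, per the file headers. Their separate comparison table holds, again per the file headers, genotype-level FPKM with p-values and q-values.

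FPKM values are not counts, so no count test was run and depth stayed unknown. Values were tested as log2(FPKM + 1) with limma 3.58.1 in R 4.3.3 (eBayes with a trend, two-sided, genotype as the only term) over the 11017 genes whose mean reached 1 FPKM, with Benjamini-Hochberg adjustment and a threshold of 0.05. The fit was checked on simulated data. Log2 fold changes are on this scale, which understates changes of low genes. P-values rest on the spread between 2 mice per genotype, with 2 residual degrees of freedom, and on other genes. Through eBayes each gene's spread was drawn toward that of genes of similar level, with 2.69 prior degrees of freedom.

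The members and lists were chosen with earlier results of these data known. Named were all members that passed, the 3 members of each role with the smallest p, the most and least abundant of each role and any under the filter. For the other complex I genes and the regulators, the 3 genes with the smallest p were named. Of each marker list except the B-lineage list, the 3 most abundant genes and any at 0 were named. Of the B-lineage list, only genes that fell were named. Further members were named after their values were seen. Transcripts were compared with blastn 2.17.0+. Alternatives were other pseudocounts, filters, scalings and eBayes settings, a replicate block and leaving out each library. The values of some single genes are not reported here, and those genes are left out of the plots but not out of counts, sums or medians.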

Additional observations from a re-analysis of the deposited data

How the results depend on the processing

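Pseudocounts of 0.1 and 5 FPKM and scaling to equal median ratios left the same 6 complex I genes called, 1 higher and 5 lower. A minimum mean of 5 FPKM and robust eBayes added Ndufaf2, and quantile normalization added Ndufa2. Without a trend in eBayes 242 genes were higher and 69 lower, with 0 and 1 among complex I genes, where Ndufa3 alone passed. With no filter on low values 4 genes were higher and 1 lower, with 0 and 0 among complex I genes. The authors' deposited table marked 0 complex I genes as higher and 2 as lower. With 1 library left out, the higher calls over all genes numbered 2 to 18 and the lower calls 0 to 13, and complex I had 0 of each. The cause of these losses was not tested.

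The libraries share replicate numbers, but nothing in the labels ties same-numbered mice, and with 2 pairs the correlation of 0.144 between their deviations does not settle it. With the replicate number as a block, 456 genes were higher and 270 lower, and complex I had 2 higher and 5 lower. The block added Ndufs5 and Ndufs6 and lost Ndufc2 (adjusted p = 0.054).

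The median of the complex I genes kept its sign, and lay between -0.137 and -0.049 with 1 library left out. The rank correlation between change and coding length was 0.600 in the main fit and 0.548 to 0.645 with 1 library left out. It was 0.702 with a minimum mean of 5 FPKM. It was 0.725 without members with near-identical copies, a setting chosen after the data were seen. Directions that turned belonged to genes near 0 that never passed. Ndufa13 was at -0.004 with quantile normalization. With 1 library left out, Ndufa13 ranged from -0.038 to 0.045, Ndufa7 from -0.031 to 0.183, Ndufaf1 from -0.211 to 0.083 and Ndufb3 from -0.298 to 0.069. Ndufb6 ranged from -0.199 to 0.164, Ndufb9 from -0.008 to 0.037 and Ndufv2 from -0.016 to 0.011. Without read counts, what depth allows could not be stated.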
